A study of Rattus norvegicus with 3 samples.

Results

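Gene expression of the contralateral cerebellar cortex was set against that of the control group, which takes 2 of the 3 arrays of the series, chosen by their titles. The contralateral array carried RNA of the left cerebellar cortex of male Wistar rats, 9 weeks old, taken 2 days after transient middle cerebral artery occlusion (MCAO) on the right. The control array carried RNA of the left cerebellar cortex of male Wistar rats of the same age, 2 days after a sham operation. Tissue of 4 rats was pooled for each array, so there was 1 pool a side and no test, and every difference given here is one between pools. The remaining array, of the right (ipsilateral) cerebellar cortex of the same MCAO rats, serves only as a further value beside single genes, and its ratio shares the control array with the contralateral ratio.

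In crossed cerebellar diaschisis (CCD), damage to a cerebral hemisphere is followed by low blood flow and metabolism in the opposite cerebellar hemisphere. The cerebral cortex reaches that hemisphere through neurons of the pons, whose mossy fibres excite the granule cells. Granule cells in turn excite the Purkinje cells, which carry the output of the cerebellar cortex and are wrapped by Bergmann glia. The comparison asks how transcripts of these cells, and of the vessels, membranes and blood around them, stood in the affected side against the sham side.

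The label of the tissue was checked against marker genes. On both arrays, all 22 granule cell genes of the list and 23 of 24 Purkinje cell genes were well above background, which is the call of the scanner software that a spot is brighter than its surroundings. The granule cell gene Cbln1, a secreted synapse organiser, had a scaled log2 signal of 15.34 on the contralateral and 15.43 on the control array. Pcp2, which is made by Purkinje cells, had 15.34 and 15.38. Tbr1, a transcription factor of the forebrain, did not rise well above background on any array compared here. It does not speak for the forebrain list, in which 16 of 22 genes were well above background on both arrays.

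Of 16116 named genes on the array, 11329 were well above background in every spot on both arrays, and these are called measured below. The log2 ratio of contralateral to control had a median of 0.01 over the measured genes, and 92.4% of them lay within 0.5 of 0. With a log2 ratio beyond 1 taken as the limit, which is a 2-fold difference, 86 genes were higher (0.759% of those measured) and 84 were lower (0.741%). As a share of changed genes that were higher, percent values were 50.6 in the main analysis and 28.6 with no scaling, since the median of all genes then shifted by -0.15. Genes past the limit were mostly dim: 43 higher and 54 lower ones were among the 2074 genes with a mean log2 signal under 6, against 7 and 5 among the 3565 genes at 10 and over.

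Weight is given to genes that several spots or probes read. These were 3427 of the measured genes, 2580 by at least 2 probes and 847 by a single probe printed in several spots. Over 2255 replicated probes, spots of a probe differed with a median SD of 0.046 in log2 signal on the contralateral array and 0.047 on the control array. The log2 ratios of probes of the same gene spanned a median of 0.15, and 0.55 at the 90th percentile, over 2678 genes. The error that the scanner software gives had a median of 0.20 for the ratio of a gene read from 1 spot. None of these errors covers the variation between rats or between hybridisations. Among genes with several reads, 26 were higher and 22 were lower. Of these, 12 higher and 11 lower genes had at least 2 probes, and in 8 of each every probe was beyond 0.5 in the same direction.

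**Figure D1:**
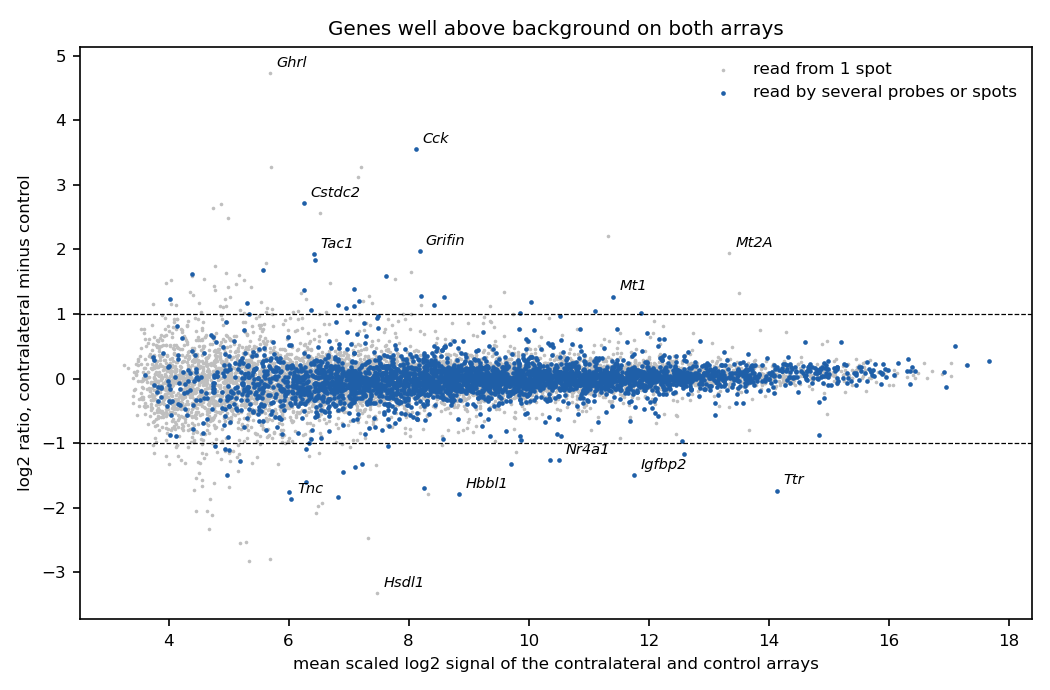
Mean scaled log2 signal of the contralateral and control arrays (x axis) against the log2 ratio of contralateral to control (y axis) for the 11329 measured genes, with dashed lines at log2 ratios of 1 and -1. Blue points are the 3427 genes read by several probes or spots and grey points the 7902 genes read from 1 spot, and the spread is widest where the signal is low.

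Cck had the largest log2 ratio among the genes with several reads. This gene encodes cholecystokinin, a neuropeptide of many forebrain neurons. Its scaled log2 signal was 9.91 on the contralateral, 6.63 on the ipsilateral and 6.35 on the control array, a log2 ratio of 3.56 to control with a scanner error of 0.21. The 10 spots of its probe were all at or above 9.82 on the contralateral array and lay between 6.13 and 6.59 on the control array. Tac1, the precursor of substance P, had 7.40, 5.69 and 5.46 in the same order, a ratio of 1.93. Nrgn, a calmodulin-binding protein of forebrain dendrites, had 7.35, 5.31 and 5.52, a ratio of 1.83. Camkv, a kinase-like protein of vesicles, had a ratio of 1.68 from a control signal of 4.73, and it was under 1 with normexp and with 50 added to the signal. These 4 genes were high on the contralateral array alone, and the ipsilateral array was within 0.28 of the control array for each. Whether the sides differ was not tested.

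A second set was high on both arrays of the MCAO group. Cstdc2, a gene of the cystatin family, had scaled log2 signals of 7.62 on the contralateral, 7.41 on the ipsilateral and 4.90 on the control array, and its 2 probes gave contralateral ratios of 2.65 and 2.78. Grifin, a galectin-related protein first known from the lens, had 9.17, 9.11 and 7.20, with ratios of 1.91 and 2.03 from its probes. Ccn2, a matrix protein also known as connective tissue growth factor, had 8.42, 8.65 and 6.83, a ratio of 1.59. Lrg1, a plasma glycoprotein of the acute phase that acts on vessels, had 10.64 on the contralateral and 9.45 on the control array, a ratio of 1.19, with 1.55 on the ipsilateral side. Mgst2, a microsomal glutathione transferase, stood at 1.37, Fibin at 1.27 and the lysophospholipase Pnpla7 at 1.27, each with an ipsilateral ratio between 1.05 and 1.46. Msmp, a secreted microseminoprotein, stood at 1.62 on a dim signal of 3.58 on the control array. The ratio of Mgst2 and that of Msmp fell under 1 with normexp and with 50 added.

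Bcl11b, a transcription factor of forebrain projection neurons, had a ratio of 1.23 from probes that stood at 0.63 and 1.83, and it was under 1 with normexp and with 50 added. Further higher genes with several reads and all probes beyond 0.5, named here after their values were seen apart from Ccl6, include Hdc, Gpnmb, Pla1a, C8h15orf39, Gpd1, Tinagl1 and Ccl6, between 1.01 and 1.17. Hdc makes histamine. In 4 further genes the mean passed the limit through 1 of 2 probes: Sestd1, Pfkfb4, Rgs17 and Stk11 had a probe between -0.07 and 0.05 and another between 2.24 and 2.71. These genes were also named after their values were seen, apart from Pfkfb4.

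Mt1, a metallothionein that binds zinc and copper, was read by 10 spots. Its scaled log2 signal was 12.04 on the contralateral, 12.09 on the ipsilateral and 10.77 on the control array, a ratio of 1.27. Mt2A, its neighbour on the chromosome, was read from 1 spot and had 14.31, 14.34 and 12.36, a ratio of 1.95. Both kept ratios above 1 under every alternative tried. Mt3, the metallothionein of the brain, had 14.13, 14.08 and 13.82, a ratio of 0.31. Mtf1, the factor that switches metallothioneins on when zinc is high, stood at 0.07 and turned negative without scaling. Over the 24 measured genes of metallothioneins and zinc transporters the median was 0.06, or -0.09 without scaling, with these 2 genes higher and none lower.

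The promoters of Mt1 and Mt2A are shown because these 2 neighbouring genes were higher together, both with large signals. Capitals mark matches to the core of the metal response element, the letters TGCACNC and TGCGCNC on either strand, in the 250 bases before each start in RefSeq on build GRCr8. The windows are chr19:10832976-10833225 and chr19:10838709-10838958, both on the minus strand, and each is written 5′ to 3′ along its gene.
Mt1: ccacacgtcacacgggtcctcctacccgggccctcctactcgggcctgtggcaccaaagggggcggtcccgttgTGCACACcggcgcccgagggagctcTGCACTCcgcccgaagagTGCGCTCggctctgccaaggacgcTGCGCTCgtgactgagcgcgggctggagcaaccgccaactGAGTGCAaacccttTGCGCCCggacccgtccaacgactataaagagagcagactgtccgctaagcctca
Mt2A: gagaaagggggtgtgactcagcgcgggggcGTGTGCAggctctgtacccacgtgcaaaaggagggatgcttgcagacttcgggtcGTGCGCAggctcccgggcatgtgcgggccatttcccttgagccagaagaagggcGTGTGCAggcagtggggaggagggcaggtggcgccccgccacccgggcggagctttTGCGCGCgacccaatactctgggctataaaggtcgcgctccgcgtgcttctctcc
Mt1 had 6 matches and Mt2A had 4. Of all 33469 promoters of this length, 20.6% held a match and 1.17% held at least 3, and a match is a description of letters only. In the list of metallothioneins and zinc transporters, 13 of 24 genes held one in at least 1 of their promoters. This counts genes, so it is not on the same footing as the share of all promoters. The motif was kept for print after matches had been seen for 11 patterns in 7 gene lists. The patterns were the 2 forms above, a loose and a full form of the glucocorticoid response element, a full and a short form of the cAMP response element, the E-box, the D-box, and the serum, antioxidant and sterol response elements. Among 26 genes of the glucocorticoid list, 2 held the loose glucocorticoid pattern in a promoter and 0 the full one. Of all promoters, counted singly, 0.373% and 0.012% did.

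Tnc had the smallest log2 ratio among the genes with several reads. It encodes tenascin C, a matrix protein of glia and of injured tissue, and its scaled log2 signal was 5.11 on the contralateral, 4.80 on the ipsilateral and 6.98 on the control array. The ratio was -1.87, and its 2 probes gave -1.88 and -1.86, but it was -0.87 with normexp. Mmp14, a matrix metalloproteinase held in the cell membrane, was read from many spots. Its 20 spots on 2 probes gave 9.04, 9.26 and 10.37, with probe ratios of -1.34 and -1.32, and it kept a ratio below -1 under every alternative. Col1a1, the main chain of fibrillar collagen, had 9.73, 10.38 and 10.99, a ratio of -1.26 from probes at -1.55 and -0.97, the latter being the brightest probe, with which it is within the limit. Igfbp2, a binding protein of insulin-like growth factors that the membranes around the brain make, had 11.01, 11.70 and 12.50, a ratio of -1.50.

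Among signalling genes, Nr4a1, an orphan nuclear receptor induced within minutes of neuronal firing, had scaled log2 signals of 9.87 on the contralateral, 10.24 on the ipsilateral and 11.14 on the control array. Its ratio was -1.26, and the 10 spots of its probe lay between 9.78 and 9.98 and between 11.05 and 11.25 on the contralateral and control arrays. Fos, another gene of that kind, had 6.57, 6.91 and 7.89, a ratio of -1.32, which was above -1 with normexp and with 50 added. The chemokine Ccl5 stood at -1.44 and the potassium channel subunit Kcne5 at -1.49. Each was also nearer to 0 than -1 with normexp, and Kcne5 with 50 added as well. Prelid2 stood at -1.27, with probes at -1.63 and -0.92. It was above -1 with normexp, with 50 added and with its brightest probe. The ipsilateral ratio of each of these genes had the same sign, between -0.90 and -1.56. The remaining lower genes were Fabp5, Nusap1, Cdk1, RT1-CE7 and Hbb, between -1.17 and -1.03, with Fabp5 and RT1-CE7 named after their values were seen. Nusap1 and Hbb were above -1 with quantile normalization, with normexp and with 50 added, and Cdk1 with normexp and with 50 added. Fabp5 carries fatty acids and was read by 2 probes at -1.17 and -1.16. Of 3 lower genes whose probes disagreed, Flt4, Rp2 and Baz2a, a probe stood between -3.10 and -2.56 and another between -0.11 and 0.37; Rp2 and Baz2a were named after their values were seen.

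The other lower genes of this group belong to blood or to the choroid plexus. Transcripts of beta globins stood at -1.83 for Hbe2, -1.79 for Hbbl1, -1.76 for Hbb-bs and -1.70 for Hbb-b1. These genes are close copies of each other, so a probe for one can read another and their values are not independent. The counts and the list of leading genes still hold each as a gene, while the blood median holds only Hbb-bs and Hbb-b1 of them. Ipsilateral ratios of these beta globins lay between -2.66 and -2.14. The ratio of Hbb-bs to control on the contralateral side was above -1 with normexp and with 50 added. Ttr, the carrier of thyroid hormone and retinol made by the choroid plexus, had scaled log2 signals of 13.27 on the contralateral, 16.20 on the ipsilateral and 15.01 on the control array. This gives a contralateral ratio of -1.73 against 1.19 for the ipsilateral side, from 10 spots.

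**Figure D2:**
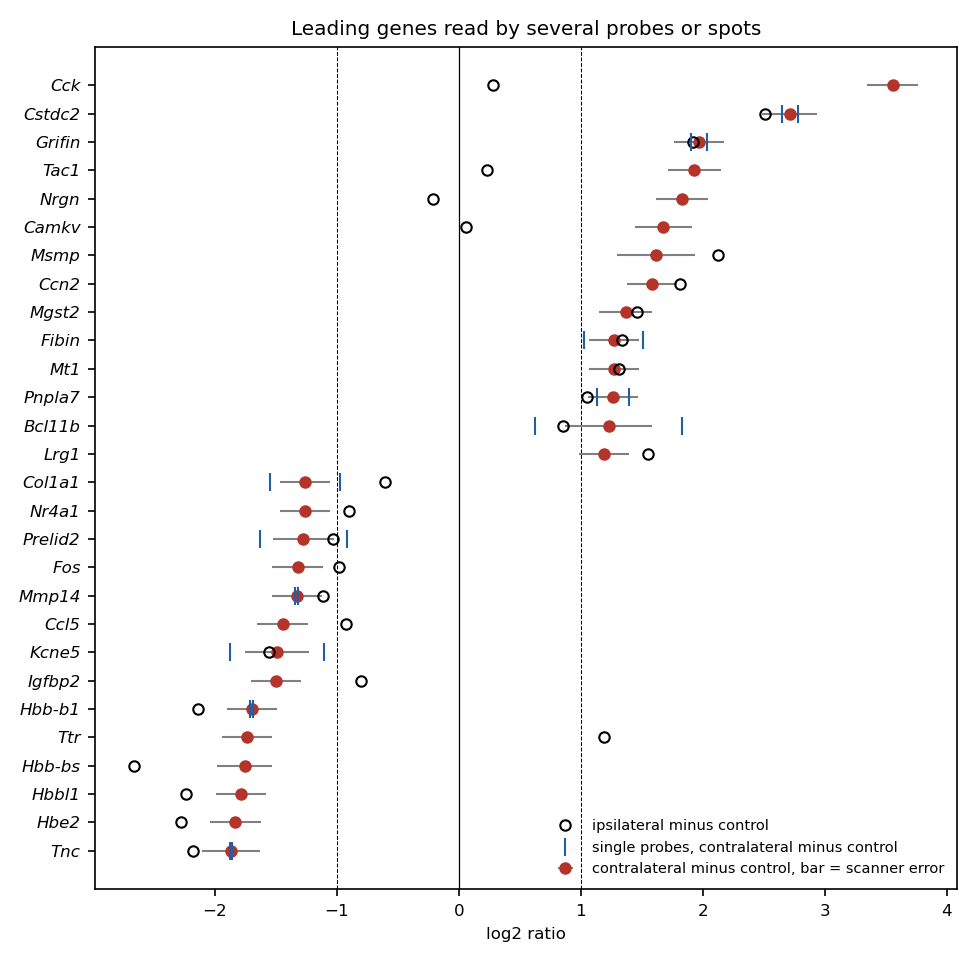
Log2 ratios (x axis) of the 14 largest and 14 smallest genes read by several probes or spots with every probe beyond 0.5 in the same direction. Red points are contralateral minus control with the scanner error as a bar, blue ticks single probes where there are several, and open circles ipsilateral minus control, which lie near 0 for Cck, Tac1, Nrgn and Camkv and at 1.19 for Ttr.

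Of the 28 leading genes with several reads, 12 had probes printed in 8 to 10 spots, 14 probes in all. Their spots are shown to give the spread within an array. The genes were picked for ratios past the limit, far beyond that spread, so the gap between the contralateral and control spots follows from the choice and is no support for it. The spots share a hybridisation and are not replicates of the pools.

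**Figure D3:**
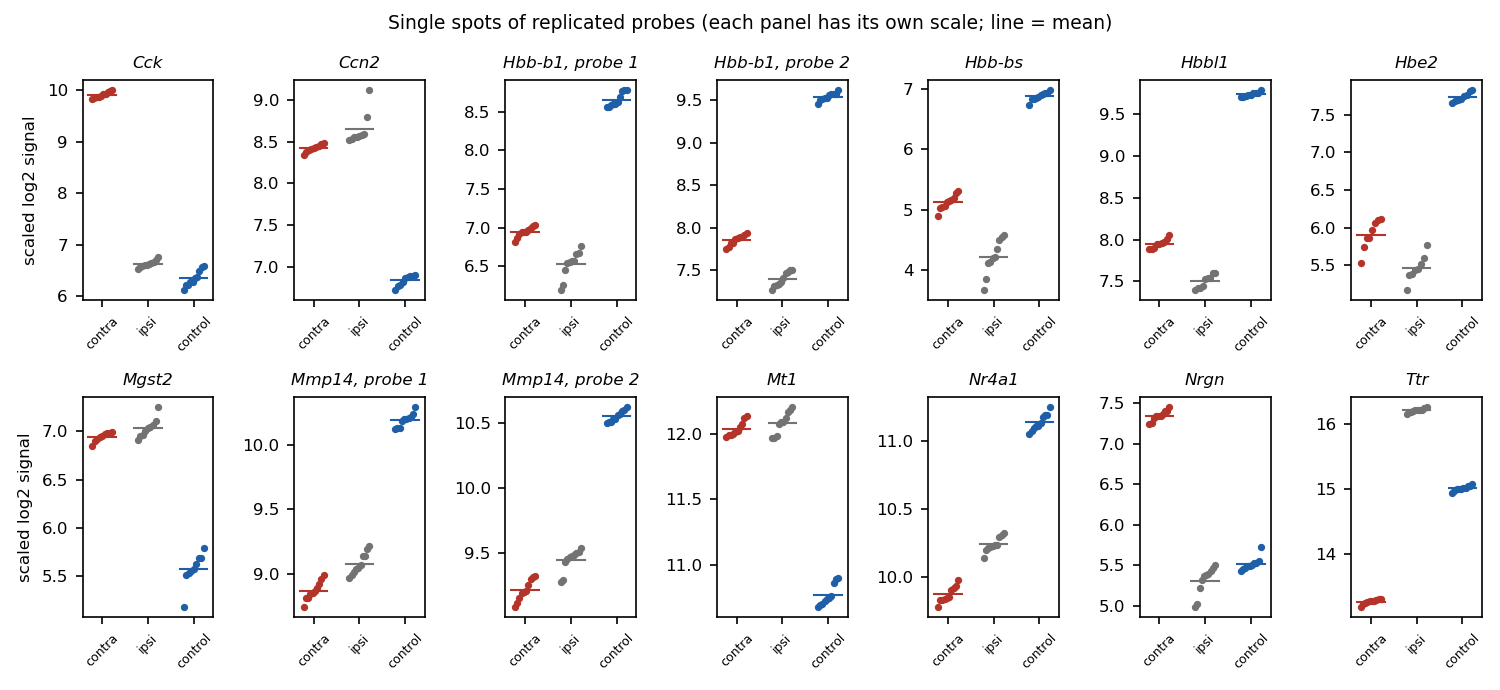
Scaled log2 signals (y axis) of the single spots of 14 replicated probes on each of the 3 arrays, with a line at the mean and a scale of its own in each panel. The genes were chosen by their ratio, so the gap between contralateral and control is given by the choice, and the panels show the spread of spots within an array, as for Cck between 6.13 and 6.59 on the control array.

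Most genes past the limit rested on 1 spot, with 60 higher and 62 lower among 7902 such genes. Ghrl, which encodes the hormone ghrelin, had the largest ratio in the main analysis, 4.73, with a scanner error of 0.36, but it was 1.87 with normexp, below that of Cck. Its scaled log2 signal was 8.06 on the contralateral, 2.49 on the ipsilateral and 3.33 on the control array, where it was near the lowest signal well above background, 3.12. Rsbn1l had 8.85, 5.32 and 5.57, a ratio of 3.27, and was likewise high on the contralateral array alone. Glycam1, a mucin of vessels through which lymphocytes leave the blood, had 7.34, 9.94 and 4.07, a ratio of 3.27. Mrap, which brings the receptor of the stress hormone corticotropin to the cell surface, had 8.71, 8.65 and 5.59, a ratio of 3.13. The kinase subunit Phka1 stood at 2.70 and Spata21 at 2.65, both under 1 with normexp and Spata21 also with 50 added.

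Among genes read from 1 spot on the lower side, Hsdl1, of the steroid dehydrogenase family, had 5.82 on the contralateral, 6.07 on the ipsilateral and 9.14 on the control array, a ratio of -3.32. Rab11fip2, an adaptor of vesicle recycling, stood at -2.46. These 2 kept a ratio below -1 with normexp. Tsnaxip1 at -2.83, the mitotic kinase Ttk at -2.79, Spag11bl at -2.55 and Baiap2l1 at -2.53 did not. A single spot has no second reading to be checked against.

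Where a gene was well above background on 1 array only, the ratio is a bound. It was taken against the higher of the dim signal and the lowest signal well above background on that array, 3.19 on the contralateral and 3.12 on the control array. Some spots not well above background were brighter than that, such as Camp at 3.61 on the contralateral and Cela2a at 3.52 on the control array. The bounds here and below are therefore approximate. Of the 16116 named genes, 225 were such on the contralateral and 421 on the control array, few of them with several reads. Over all spots, 72.3% were well above background on the contralateral and 73.7% on the control array. The zinc finger gene Ikzf2 was at least 1.73-fold higher on the contralateral array, and it was the single gene of that side with several reads. On the lower side, the cell division genes Cdca3, Cenpw and Ect2 were at least 4.94-fold, 2.80-fold and 2.36-fold lower, and Cd3g, a chain of the T cell receptor complex, at least 1.89-fold. Cdca3 was read by 10 spots, with scaled log2 signals of 2.88 on the contralateral, 3.68 on the ipsilateral and 5.49 on the control array.

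Gene lists are described by the median log2 ratio of their measured members, beside 0.01 over all measured genes, 0.759% of which were higher and 0.741% lower. At these shares a short list holds few or no genes past the limit, so a list with none does not stand apart. Without scaling every median shifts by -0.15, and so a median between 0 and 0.15 turns negative there. In a bulk sample, fewer cells of a type and less RNA per cell cannot be told apart.

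The lists of neurons of the cerebellar cortex held no gene past the limit. Of all measured genes only 0.759% were higher and 0.741% lower, so few or none were to be had in lists this short. Over 22 granule cell genes the median was 0.02, with 11 above and 11 below 0, and it turned negative without scaling, after quantile normalization and with the deposited values. The alpha 6 subunit of the GABA-A receptor, Gabra6, stood at 0.15, or 0.00 and below without scaling, the transcription factor Neurod1 at -0.11 and Cbln1 at -0.10. Calb2, the calcium buffer calretinin, was the lowest at -0.30, with both probes near it. Over 23 Purkinje cell genes the median was 0.14, and -0.01 without scaling, with 17 above and 6 below 0. Itpr1, the calcium release channel that Purkinje cells hold in large amounts, had scaled log2 signals of 16.01 on the contralateral, 15.95 on the ipsilateral and 15.79 on the control array, a ratio of 0.22. The calcium buffer Pvalb stood at 0.21 and Aldoc, the zebrin antigen, at 0.27, while Pcp2 stood at -0.04. Over 13 genes of interneurons and unipolar brush cells the median was 0.07, and negative without scaling.

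The lists of astrocytes and oligodendrocytes likewise had no gene past the limit, which is near the share over all measured genes. The median of 23 genes of Bergmann glia and astrocytes was 0.00, with a sign that changed between scalings, and single members stood apart. The gap junction gene Gjb6 had 12.33 on the contralateral and 11.62 on the control array, a ratio of 0.71, and Gdf10, a factor of Bergmann glia, stood at 0.39. Fabp7, a fatty acid carrier of radial and Bergmann glia, stood at -0.80, the filament gene Gfap at -0.73 and the water channel Aqp4 at -0.55. The median of 23 oligodendrocyte genes was -0.11, with 8 above and 15 below 0, and it was below 0 under each scaling. Of 21 genes of microglia and macrophages, the median was 0.07, and negative without scaling and with normexp. Cd163, the haemoglobin scavenger receptor of perivascular macrophages, was higher at 1.52, read from 1 spot and under 1 with normexp and with 50 added. The fractalkine receptor Cx3cr1 stood at 0.78 with 1.27 on the ipsilateral side, whereas P2ry12, the purine receptor of resting microglia, stood at -0.01, or 0.02 after scaling to the median.

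Most genes of vessels and membranes had ratios below 0, few of them past the limit. Over 27 genes of endothelium and pericytes the median was -0.24, with 21 below 0, and it was below 0 under each scaling. The drug efflux pump Abcg2 was higher, at 1.01, but under 1 without scaling, with the deposited values, with normexp and with 50 added, and the glucose carrier Slc2a1 stood at 0.39, whereas the receptor Tie1 was lowest at -0.78. All 19 leptomeningeal genes were measured, with a median of -0.41, or -0.29 with normexp, and 17 below 0, and the sign held under each scaling. Col1a1 alone was lower, save with its brightest probe. Their summed scaled signal was 100295 on the contralateral, 117017 on the ipsilateral and 112455 on the control array. Ptgds, the most abundant, stood at -0.08 and Col1a2 at -0.85, and Fn1 was highest at 0.34. Lum, a proteoglycan of collagen fibrils, stood at -0.95, or -0.29 under the alternative that brought it nearest to 0.

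For the choroid plexus, 18 of 22 genes were measured, and their median was -0.55, or -0.28 with normexp, with 16 below 0 and the sign held under each scaling. The lower ones were Ttr, Sostdc1 and Slc4a5, with Slc4a5 at -2.12 from 1 dim spot, though not with normexp or with 50 added. Their summed scaled signal was 20613 on the contralateral, 87904 on the ipsilateral and 46204 on the control array, and Ttr was the most abundant. Sostdc1, a secreted inhibitor of BMP and Wnt signals, had 5.51, 8.40 and 7.48 in that order, a ratio of -1.98. The folate receptor Folr1 had 5.49, 7.29 and 6.36, a ratio of -0.87. Among the defining genes, Kl was well above background on the control array and not on the contralateral array, where it was at least 2.31-fold lower. Otx2, which marks the plexus and also granule cell precursors, stood at -0.02, or above 0 after scaling to the median. The part of choroid plexus tissue in the results for Ttr, Igfbp2 and other genes that it shares with the membranes was not tested.

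Of 18 blood genes, 9 were measured, with a median of -0.85, or -0.35 with normexp and with 50 added. The lower members were Hbb-bs, Hbb-b1 and Hbb, all beta globins and so not independent, and of these only Hbb-b1 stayed below -1 with normexp and with 50 added. Their summed scaled signal was 1609 on the contralateral, 1490 on the ipsilateral and 3030 on the control array. Hba-a1, an alpha globin and the most abundant, had 10.09, 9.94 and 10.98, a ratio of -0.88. The red cell anion exchanger Slc4a1 and the haem enzyme Alas2 were well above background on the control array and not on the contralateral array, at least 3.39-fold and 1.84-fold lower. S100a9, a protein of neutrophils, was highest at 0.58. The part of blood left in the tissue in these results was not tested.

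Markers of regions beyond the cerebellar cortex were mixed. Of 22 forebrain genes, 16 were measured, with a median of -0.01 that changed sign between scalings, and their summed scaled signal was 11959 on the contralateral, 11714 on the ipsilateral and 10762 on the control array. Nrgn was higher, Bcl11b was higher save with normexp and with 50 added, and Slc6a3, the dopamine transporter, was lower at -1.26 on a dim signal, though not with normexp or with 50 added. Ppp1r1b, the most abundant, stood at 0.33. Besides Tbr1, the forebrain gene Drd1 was not measured on both arrays, and the transcription factors Neurod2 and Neurod6 stood at 0.02 and -0.05, with signs that changed between scalings. The part of tissue from outside the cerebellum in the ratios of Cck, Tac1 and Nrgn was not tested. Of 20 genes of brainstem and deep nuclei, 7 were measured, with a median of -0.07 that held its sign under each scaling and none past the limit. Tph2, which makes serotonin, was at least 2.11-fold higher, and Dbh, which makes noradrenaline, at least 2.10-fold lower, each read from 1 dim spot.

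**Figure D4:**
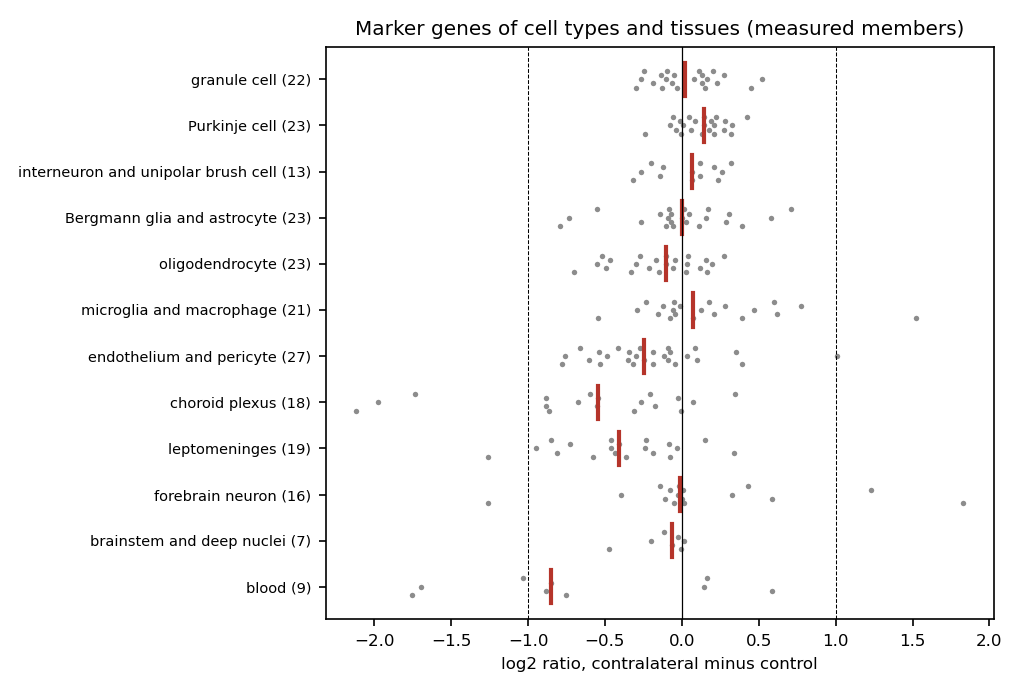
Log2 ratio of contralateral to control (x axis) of each measured marker gene (grey points) of 12 cell types and tissues, with the median in red and the number of genes in brackets. Medians lie at -0.85 for blood, -0.55 for the choroid plexus and -0.41 for the leptomeninges, negative under each scaling but nearer to 0 with normexp, and at 0.02 for granule cells, where the sign changed.

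The neuropeptide list held the widest range. Of 43 genes 28 were measured, with Cck and Tac1 higher and Trh lower, at -1.43 from 1 spot. Trh was above -1 with normexp and with 50 added. The median was -0.05, and 0.03 with normexp. Other bright members lay near 0: Sst, the somatostatin precursor, stood at 0.34, Npy at 0.04 and turned negative without scaling, and Chgb, a packing protein of peptide granules and the most abundant, at 0.06 with a sign that changed between scalings. Crh, the releasing hormone of the stress axis, stood at -0.87 from probes at -1.48 and -0.26. Of 7 pituitary hormone genes 2 were measured, with a median of -0.21 that was negative under each scaling.

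Among 34 measured immediate early genes, those that neurons switch on first when they fire, the median was -0.13, with 11 above and 23 below 0, and the sign held under each scaling. Fos, Nr4a1 and Egr4 were lower, with Egr4 at -1.14, while Arc stood at -0.16 and Egr1 at -0.10. Maff was higher at 1.04, but under 1 without scaling, with the deposited values, with normexp and with 50 added, and 0.59 at the lowest. Over 17 genes of the circadian clock the median was 0.14, and -0.01 without scaling. The repressors Per2 and Per1 stood at 0.87 and 0.72 and kept their sign under each scaling, with ipsilateral ratios of 0.85 and 0.75, and the activator Bmal1 stood at -0.27.

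Genes that glucocorticoids are known to induce had the highest median of the 56 lists, 0.71 over 27 measured genes. Of these, 24 were above 0, 6 were higher and none was lower. The list and its members were chosen with earlier results of these data known. The rank may thus follow in part from that choice and is no test of a response. The median was at least 0.52 under each scaling. Sult1a1, a sulfotransferase, had scaled log2 signals of 12.42 on the contralateral, 12.40 on the ipsilateral and 10.22 on the control array, a ratio of 2.21. Besides Mt1 and Mt2A, the serum and glucocorticoid regulated kinase Sgk1 stood at 1.34 and the repressor Bcl6 at 1.32. Plin4, a coat protein of lipid droplets, stood at 1.09, but was under 1 without scaling and with 50 added and fell to 0.49 with normexp. Zbtb16 had ratios between 1.98 and 2.66 from 3 probes, but 1 of these was not well above background on both arrays. The chaperone Fkbp5 and Tsc22d3, both classical targets, stood at 0.46 and 0.59, while Dusp1 was the lowest of the list at -0.15. The receptor itself, Nr3c1, stood at -0.01, with a sign that changed between scalings. The summed scaled signal of the list was 118650 on the contralateral, 119553 on the ipsilateral and 62129 on the control array.

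In the list of Nrf2 and oxidant defence, 42 genes were measured and none passed the limit, which is near the share over all measured genes. The transcription factor Nfe2l2 itself had a scaled log2 signal of 9.76 on both the contralateral and the control array, and Hmox1, which degrades haem and is one of its targets, had 7.62 and 7.12, a ratio of 0.50 that was at least 0.35 under each scaling. Nqo1, a quinone reductase, was highest at 0.74 and Gstm2 lowest at -0.63. The median was 0.02 and its sign changed between scalings. Over 36 apoptosis genes the median was -0.05, negative under each scaling, with Bax at -0.06, and over 34 hypoxia genes it was -0.02, or 0.01 after scaling to the median. Pfkfb4 was higher in the hypoxia list, through 1 probe at 2.37 while the other stood at 0.04. Vegfa stood at -0.39 and Adm, a peptide that widens vessels, at 0.48. Of the reference genes, Actb stood at -0.18 and Gapdh at -0.12 over 8 probes, and both were below 0 under each scaling.

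The energy and protein synthesis genes lay close to 0. Medians were 0.01 over 34 genes of complex I, 0.00 over 4 of complex II, -0.02 over 9 of complex III, 0.02 over 15 of complex IV and 0.04 over 17 of complex V, and each changed sign with at least 1 scaling. So did those of glycolysis, -0.03 over 17 genes, and of the citric acid cycle, 0.05 over 19 genes, and none of these genes passed the limit. Pfkl, a phosphofructokinase, was the highest glycolytic gene at 0.62, with 0.14 on the ipsilateral side, and Ldha the lowest at -0.25. Cytosolic ribosomal proteins had 82 of 90 genes above 0 and a median of 0.12, which was -0.03 without scaling. Mitochondrial ribosomal proteins had a median of 0.02 over 66 genes and the proteasome one of 0.03 over 36 genes, and both changed sign between scalings.

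Receptors and channels of neurons showed few single genes that stood apart. Grm4, the metabotropic glutamate receptor of parallel fibre endings, had 14.39 on the contralateral and 15.26 on the control array, a ratio of -0.87 from 10 spots, below the other 22 glutamate receptor genes measured. The median of that list was -0.05, and that of 12 GABA-A receptor genes was -0.11, both below 0 under each scaling. Gabrd, the extrasynaptic subunit of granule cells, stood at 0.23. Of 66 potassium channel genes Kcne5 was lower and none was higher, with a median of -0.08 that was negative under each scaling. The medians were 0.13 over 8 sodium channel genes, 0.03 over 18 calcium channel genes and 0.13 over 18 genes of calcium stores and pumps, and all of them turned negative without scaling. The 34 genes of synaptic vesicle fusion had a median of -0.03, or 0.00 and above after scaling to the median. Unc13a, which primes vesicles, was lowest there at -0.92 and Snap25, of the fusion machinery, stood at 0.02 with a sign that changed between scalings.

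Matrix genes followed the membranes in part. Among 19 collagens, Col1a1 was lower save with its brightest probe and Col16a1 stood at -0.62. Col14a1 was highest at 0.60, or 0.06 at the lowest of the alternatives. The median of this list was -0.15. Over 23 matrix metalloproteinases and their inhibitors it was -0.07, with Mmp14 lower and Mmp28 higher, at 1.03, but under 1 without scaling, with the deposited values, with normexp and with 50 added, where it was 0.33 at the lowest. Over 29 angiogenesis genes it was -0.21, with Mmp14 and Flt4 lower and Aplnr, the apelin receptor, higher at 1.19, against -0.70 on the ipsilateral side. Aplnr was read from 1 spot and was under 1 with normexp and with 50 added, and Flt4 passed the limit through 1 probe. The receptor Kdr stood at -0.66. Over 15 genes of insulin-like growth factors the median was -0.06, with Igfbp2 lower, Igf2 at -0.89 and the receptor Igf1r at 0.47. Each of these 4 medians was below 0 under each scaling.

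Immune genes moved both ways. Among 23 chemokines and receptors, Cxcl2 and Ccl6 were higher, at 1.03 and 1.01, and Ccl5 and Ccl12 lower, at -1.44 and -1.32, with a median of 0.01 that changed sign between scalings. The higher ones were under 1 without scaling, with the deposited values, with normexp and with 50 added, at 0.46 and 0.40 at the lowest. Ccl6 was under 1 also with outlier spots kept. The lower ones were above -1 with normexp, and Ccl12 also with 50 added. Over 26 genes of the interferon response the median was -0.19, with 20 below 0, from Bst2 at -0.94 to Mx2 at 0.54. Over 19 genes of antigen presentation it was -0.12, with RT1-A1, a class I chain, at -0.91 and Cd74, a class II partner, at -0.55. Both medians were below 0 under each scaling. The complement list had a median of 0.06 over 20 genes, negative without scaling, with C1qa at 0.47 and C3 at -0.24. The median was -0.18 over 10 measured genes of coagulation, below 0 under each scaling, with tissue factor F3 at 0.54. Over 24 genes of the acute phase it was 0.04, negative without scaling and with the deposited values, and Lrg1 was the single gene past the limit.

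Among genes of growth and repair, 28 cholesterol genes had a median of -0.24, with 22 below 0. The synthase Hmgcs1 had 13.27 on the contralateral and 14.07 on the control array, a ratio of -0.80, and Sqle stood at -0.52 from 10 spots. Of 28 cell cycle genes the median was -0.15, with Ttk, Nusap1 and Cdk1 lower, though none of them with normexp. The median was -0.03 over 27 genes of the unfolded protein response, -0.12 over 20 of thyroid hormone and retinoids and -0.07 over 17 of injury and axon growth. All 5 of these medians were below 0 under each scaling. Klf9, a target of thyroid hormone and of glucocorticoids, stood at 0.54, and the growth-associated protein Gap43 at -0.18. Heat shock chaperones had a median of 0.09 over 25 genes, negative without scaling, with the small chaperone Hspb1 at 0.77 and the collagen chaperone Serpinh1 at -0.63, read by 9 and 20 spots. Neurotrophins had a median of 0.02 over 17 genes, with a sign that changed between scalings, and Ntf3 was lowest at -0.89 and Bdnf stood at -0.50.

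Genes with symbols of the olfactory receptor form served as a list of genes mostly known from the nose. Members were taken by the form of the symbol alone. This also takes in Olr1, the receptor of oxidised low density lipoprotein, which stood at 0.37. Of 1160 such genes 100 were measured, and 4 were higher and 3 lower, from -2.05 for Or2f1b to 1.47 for Or1d2. Their median was 0.15, or 0.00 and below without scaling. These 7 genes past the limit were each read from 1 spot and were within it with normexp and with 50 added.

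**Figure D5:**
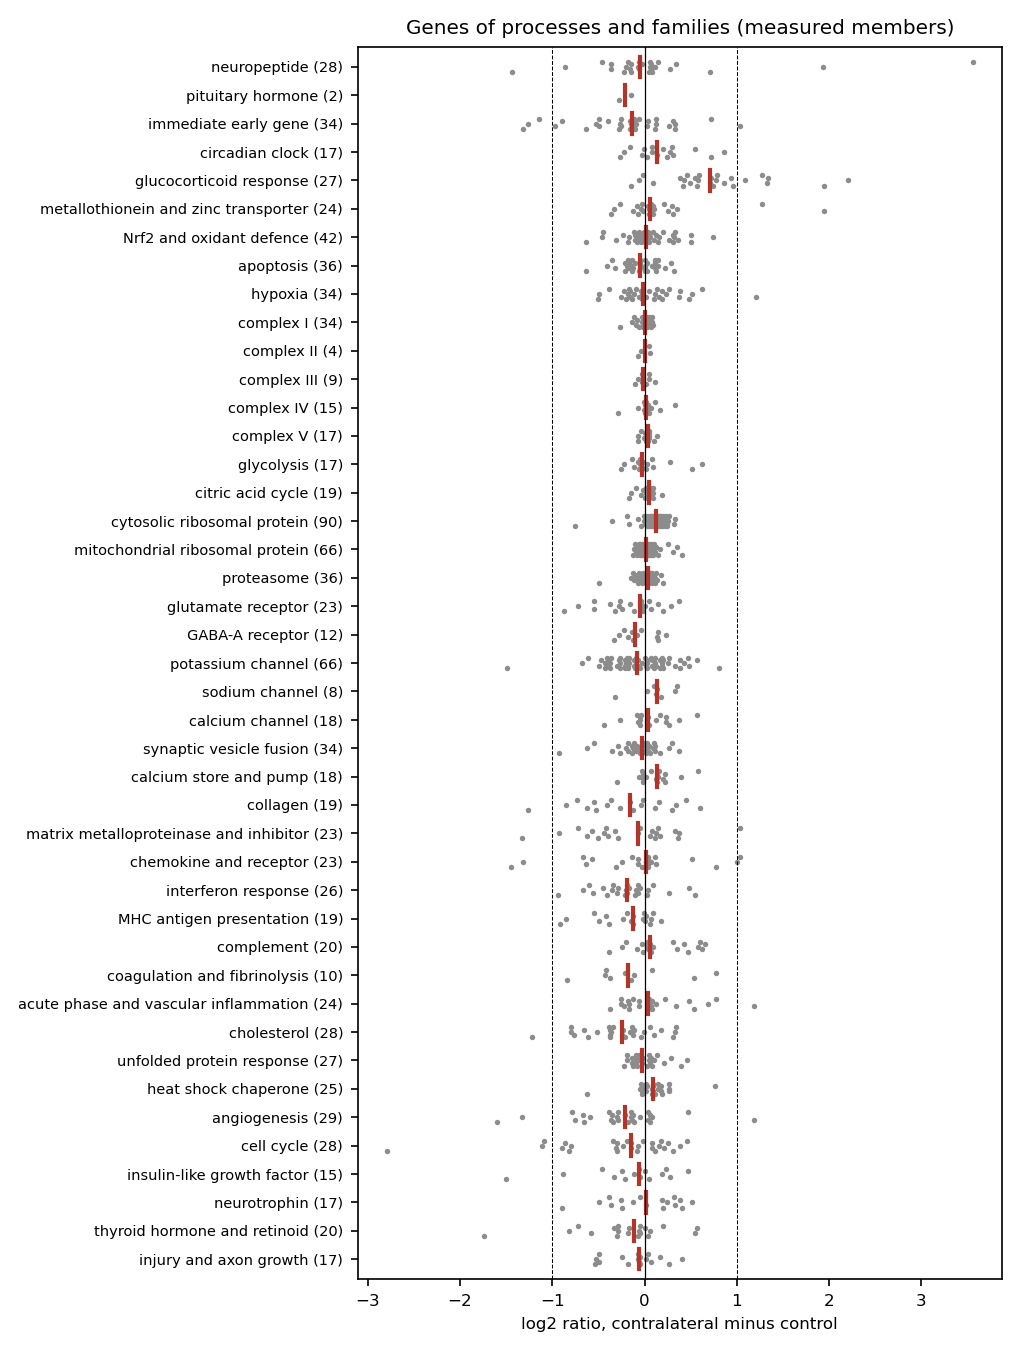
Log2 ratio of contralateral to control (x axis) of each measured gene (grey points) of the lists of processes and gene families, with the median in red and the number of genes in brackets. The glucocorticoid list has the highest median, 0.71 and positive under each scaling, while the respiratory complexes lie within a narrow range around 0 with signs that changed between scalings. Lists and members were chosen with earlier results of these data known.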

How the data were processed

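The array titled contralateral_cerebellar_cortex was compared with the array titled control. The intensity values are processed signals of Agilent Feature Extraction 12.1.0.3, background-corrected by the scanner software, as deposited by the authors. Control spots were left out, and so were 759 spots flagged as outliers on any of the 3 arrays. Log2 signals were shifted to a common 75th percentile. Probes were averaged by gene symbol, found for 17622 of 39957 accessions; placeholder symbols were not counted as named. A gene is measured when every spot is well above background on both arrays, and higher or lower beyond a log2 ratio of 1. No test was made, with 1 pool a side. Members and gene lists were chosen with earlier results of these data known. Alternatives were no scaling, a common median, quantile normalization, normexp then quantile (made from median signals, as no mean signal column was there), the deposited normalized values, 50 added to the signal, outlier spots kept, the brightest probe, other filters and a 1.5-fold limit. In promoters, 11 motif patterns were searched in 7 lists. Versions were Python 3.11.15, numpy 2.4.6, pandas 2.3.3, matplotlib 3.10.9, R 4.3.3 and limma 3.58.1.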

Additional observations from a re-analysis of the deposited data

How the results depend on the processing

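Among the genes run under each alternative, which leave out those named only after their values were seen, none past the limit changed sign, but many list medians near 0 did, as the report says beside them. The number of genes higher was 86 in the main analysis, 21 with normexp then quantile, 25 with 50 added, 477 with no filter on dim spots, 244 when measured on at least 1 array, 330 with genes without a symbol counted, 26 with only genes read by several probes or spots, and 269 at a 1.5-fold threshold. The number of genes lower was 84, then 147 with no scaling, 16 with normexp, 23 with 50 added, 752 with no filter, 370 on at least 1 array, 233 with genes without a symbol, 22 with several reads only and 359 at 1.5-fold. For the share of changed genes that were higher, percent values were 50.6, 28.6 with no scaling, 38.8 with no filter and 39.7 on at least 1 array.

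With no scaling the median log2 ratio of all 56 lists moved by -0.15, more than the tolerance of 0.0963, so a comparison relative to the shift of all genes was added after the data were seen. Other list medians moved as follows. The median log2 ratio, choroid plexus, was -0.2797 with normexp, -0.2937 with 50 added and -0.4285 with the brightest probe, and the median log2 ratio, leptomeninges, was -0.2859 with normexp. The median log2 ratio, blood, was -0.3503 with normexp and -0.3500 with 50 added, and the median log2 ratio, pituitary hormone, was -0.1107 with normexp and -0.3977 on at least 1 array. The median log2 ratio, glucocorticoid response, was 0.5200 with normexp and 0.5738 with 50 added, and the median log2 ratio, collagen, was -0.2641 with the brightest probe, with no filter and on at least 1 array. The median log2 ratio, matrix metalloproteinase and inhibitor, was -0.1738 on at least 1 array, and the median log2 ratio, coagulation and fibrinolysis, was -0.2904 with the brightest probe. The median log2 ratio, neurotrophin, was 0.1953 with the brightest probe, and the median log2 ratio, olfactory receptor, was 0.0523 with normexp and 0.0520 on at least 1 array. Of the values of named genes 3409 moved by less than the scanner error of the gene, which lets a ratio near 0 or near the limit cross it, and 191 moved by more: 91 with normexp, 79 with 50 added, 18 with the brightest probe and 3 with quantile normalization.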
